A study of Homo sapiens with 4 samples.

Results

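The hypoxia pathway was examined through 10 genes taken by name from the deposited tables: the factor subunits HIF1A and ARNT, the oxygen sensors and degradation machinery EGLN1, EGLN2 and VHL, and the target genes VEGFA, BNIP3, BNIP3L, NDRG1 and P4HA1. All 10 were present among the 13036 genes listed, and the rule that takes them uses gene names and no measured value, although the set was proposed with earlier results of these data known. Of the 10, 0 were called changed after KIAA1429 knockdown, as were 0% of all genes tested. The paper reports differentially expressed genes after this knockdown, found with DESeq on read counts. Here limma was run on FPKM with 2 samples a group, so the 0% belongs to this test. HIF1A, at 38.6 and 33.2 FPKM in control cells and 35.7 and 33.3 FPKM in knockdown cells, overlapped between the groups, as did 6 other members, whereas ARNT and VHL were higher in both knockdown samples, as were 16.9% of all genes tested, and EGLN1 was lower in both, as were 16.7%.

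Hypoxia-inducible factor is a pair of an oxygen-sensitive alpha subunit, such as HIF1A, and the stable partner ARNT. With oxygen at hand, the prolyl hydroxylases EGLN1 and EGLN2 modify the alpha subunit, VHL recognises the modified protein, and the factor is degraded. When oxygen falls the alpha subunit escapes this and the factor turns on genes of angiogenesis, glycolysis, mitochondrial turnover and matrix building, a programme much studied in hepatocellular carcinoma. Because the sensing step acts on protein, HIF1A messenger RNA need not follow HIF activity, and the target genes are the usual transcript readout of the pathway.

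RNA came from HCCLM3, an established human hepatoma cell line, infected with lentivirus that delivered a short hairpin, in 2 samples a control sequence (shCtrl) and in 2 samples one against KIAA1429 (shKIAA1429). The labels name 1 hairpin for each group, and neither the labels nor the methods name an oxygen level or a hypoxic treatment for these cultures. KIAA1429, listed under its current symbol VIRMA, belongs to the complex that writes N6-methyladenosine on RNA, and the comparison asks which transcripts differ when it is depleted. Nothing states that replicates came from separate cultures, so the p-values measure the spread between these samples, which may be technical.

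Values are FPKM (the fragments of a transcript divided by its length and by the depth of its library), summed over the listed transcripts of each gene. A log2 fold change is the mean log2(FPKM + 1) of shKIAA1429 minus that of shCtrl, a scale on which low genes appear to change less than they do. Genes at 1 FPKM or more in at least 2 samples were tested with limma (11657 genes), and a gene was called at an adjusted p under 0.05 with an absolute log2 fold change over 1. Summed FPKM ranged from 370253 to 390224 per sample, and read depth is unknown, so no counting error can be given. In bulk RNA a lower level from fewer expressing cells and from less RNA per cell cannot be told apart.

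VIRMA was at 9.37 and 14.1 FPKM in shCtrl and 6.90 and 8.52 FPKM in shKIAA1429, for a log2 fold change of -0.53 (SE 0.24, limma adjusted p = 0.917), so both knockdown samples lay below both controls without passing the test. Leaving out shCtrl replicate 2 gave -0.26, and leaving out shCtrl replicate 1 gave -0.80. Of 9 hepatocyte markers only SERPINA1 was listed, at 3.34 to 5.63 FPKM, whereas ALB, AFP, APOA1, APOB, TTR, TF, FGB and HNF4A were not among the listed genes. The epithelial keratins KRT8 and KRT18 together reached 2089 to 2206 FPKM, while EPCAM and CDH1 were not among the listed genes. COL1A1, DCN and PDGFRB, markers of fibroblasts, summed to 9.05 to 11.7 FPKM, and COL1A2 was not among the listed genes. CD68 was at 44.1 to 52.3 FPKM, while PTPRC, which marks leukocytes, was not among the listed genes, and 0 of 2 endothelial markers were. Mitochondrial transcripts took 9.29 to 10.6% of the summed FPKM.

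The transcripts of HIF1A and VEGFA differ in coding exons, and these exons are shown because the FPKM below are split between forms with and without them. The exon below, at chr14:62212409-62212535 on the plus strand of GRCh37, lies in HIF1A-202 and HIF1A-203 and is skipped in HIF1A-201.
HIF1A exon 14: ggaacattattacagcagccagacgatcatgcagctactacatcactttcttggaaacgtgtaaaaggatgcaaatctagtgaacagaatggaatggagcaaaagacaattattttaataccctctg
Its length of 127 bases is not a multiple of 3, and skipping it shifts the reading frame into an early stop, given here in capitals after the end of the previous exon.
HIF1A-201 junction: tcactttttcaagcagtaggaattattTAG
HIF1A-201 therefore holds 2205 coding bases in 14 coding exons, against 2478 in HIF1A-202 and 2481 in HIF1A-203, each with 15, and lacks the end of the protein that carries the C-terminal transactivation domain. In VEGFA the exon at chr6:43748469-43748522 (plus strand, GRCh37) is carried by VEGFA-218 alone among its 4 listed transcripts.
VEGFA-218 exon 6: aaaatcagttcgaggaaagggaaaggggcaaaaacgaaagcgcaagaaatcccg
These 54 bases code for part of the basic stretch by which long forms of the growth factor bind heparin. The coding length was 627 bases in VEGFA-218, 489 in VEGFA-201, 573 in VEGFA-225 and 1113 in VEGFA-205.

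HIF1A (ENSG00000100644.16_3, chr14:62162258-62214976, plus strand, GRCh37) was the most abundant of the 10 genes. The shCtrl mean was 35.9 ± 3.88 FPKM (SD, n = 2), and the mean of shKIAA1429 was 34.5 ± 1.72 FPKM (SD, n = 2). These differed by -0.05 on the log2 scale (SE 0.145, 95% interval -0.43 to 0.32, limma adjusted p = 0.999). The highest sample was shCtrl replicate 1, at 38.6 FPKM, and the remaining 3 lay between 33.2 and 35.7 FPKM. The antisense genes HIF1A-AS1 and HIF1A-AS3 overlap HIF1A in the annotation and were not listed, and whether reads were counted by strand is not given in the sources used here.

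ARNT (ENSG00000143437.20_2, chr1:150782181-150849244, minus strand), which dimerises with every HIF alpha subunit, was at 4.34 and 7.20 FPKM in shCtrl against 9.89 and 8.31 FPKM in shKIAA1429. Both knockdown samples were above both controls, and the ratio of the means was 1.58. As a ratio, though not in FPKM, the control samples differed between themselves by more than the group means did, the higher being 1.66 times the lower. The log2 fold change of 0.61 (SE 0.25, 95% interval -0.05 to 1.26) did not pass, with a limma adjusted p of 0.899, the lowest among the members. An exact two-sided permutation test cannot go below p = 0.333 with 2 samples against 2. Without shCtrl replicate 1 the log2 fold change was 0.30, and without shCtrl replicate 2 it was 0.92.

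EGLN1 (ENSG00000135766.8_2, chr1:231499497-231560790, minus strand), the main hydroxylase that marks HIF1A for degradation, was at 7.36 and 7.02 FPKM in shCtrl against 6.38 and 6.64 FPKM in shKIAA1429. Both knockdown samples were lower, by a log2 fold change of -0.12 (SE 0.14, 95% interval -0.49 to 0.24, limma adjusted p = 0.987). Its value rests on 1 listed transcript.

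EGLN2 (ENSG00000269858.5_3, chr19:41305092-41314338, plus strand), another hydroxylase of the family, was at 19.1 and 19.7 FPKM in shCtrl against 19.5 and 31.0 FPKM in shKIAA1429. The 3 other samples were nearly equal and shKIAA1429 replicate 2 stood above them. The log2 fold change of 0.33 (SE 0.24, 95% interval -0.30 to 0.96, limma adjusted p = 0.969) was 0.0072 without that sample. In the annotation EGLN2 overlaps the readthrough gene RAB4B-EGLN2, which was not listed.

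VHL (ENSG00000134086.7_2, chr3:10182692-10193904, plus strand), the substrate-recognition subunit of the ubiquitin ligase that binds hydroxylated HIF1A, was the steadiest of the members within each group. It was at 5.95 and 6.03 FPKM in shCtrl against 6.56 and 6.50 FPKM in shKIAA1429. The knockdown mean was 1.09 times the control mean, and both knockdown samples lay above both controls. Its log2 fold change was 0.11 (SE 0.14, 95% interval -0.26 to 0.47, limma adjusted p = 0.987). The SE of a gene as steady as this is set largely by the spread that limma estimates over all genes.

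**Figure D1:**
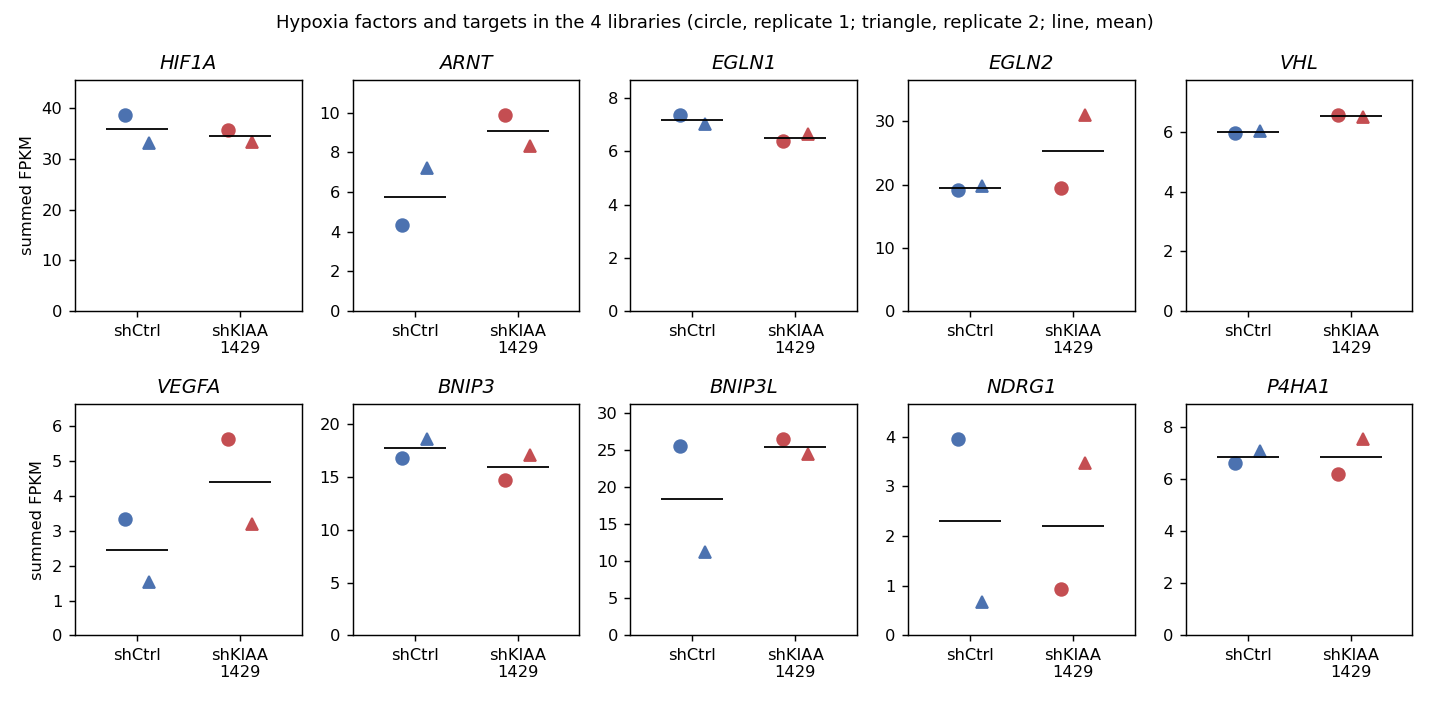
Summed FPKM of each of the 10 genes in the 2 shCtrl and 2 shKIAA1429 samples, 1 panel a gene on a linear axis from 0, with replicate 1 as a circle, replicate 2 as a triangle and the group mean as a line. ARNT and VHL were higher and EGLN1 was lower in both shKIAA1429 samples, the other 7 genes overlapped, and NDRG1 spread from 0.677 to 3.95 FPKM within shCtrl.

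VEGFA (ENSG00000112715.21_4, chr6:43737950-43754224, plus strand), the angiogenic growth factor, was low, at 3.35 and 1.54 FPKM in shCtrl against 5.63 and 3.20 FPKM in shKIAA1429. Its log2 fold change with all 4 samples was 0.67 (SE 0.36, 95% interval -0.26 to 1.59, limma adjusted p = 0.942). Leaving out shCtrl replicate 2 gave 0.28, leaving out shCtrl replicate 1 gave 1.05, and the value was 0.38 with the most abundant transcript in place of the sum. The groups overlapped, since shCtrl replicate 1 was above shKIAA1429 replicate 2, and the control samples differed 2.17-fold. Within each replicate number the shKIAA1429 sample was above the shCtrl sample. The same held for ARNT, EGLN2, VHL and BNIP3L, and the reverse for EGLN1 and BNIP3. The share over all genes was not computed. With replicate number added to the fit the limma adjusted p was 0.377 for VEGFA and 0.492 to 0.997 for the other members. Whether a number marks a shared batch is not stated.

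BNIP3 (ENSG00000176171.11_2, chr10:133779959-133795517, minus strand) and BNIP3L encode related receptors of the outer mitochondrial membrane that mark mitochondria for autophagy. BNIP3 was at 16.8 and 18.6 FPKM in shCtrl against 14.7 and 17.1 FPKM in shKIAA1429, for a log2 fold change of -0.15 (SE 0.15, 95% interval -0.54 to 0.25, limma adjusted p = 0.987). BNIP3L (ENSG00000104765.15_3, chr8:26240414-26270645, plus strand) stood at 25.5 and 11.3 FPKM in shCtrl against 26.5 and 24.5 FPKM in shKIAA1429. The low sample was shCtrl replicate 2, while the other 3 were within 24.5 to 26.5 FPKM. Its log2 fold change of 0.55 (SE 0.38, 95% interval -0.43 to 1.54, limma adjusted p = 0.960) was -0.0044 without that sample. The start of BNIP3L overlaps SDAD1P1, a pseudogene on the minus strand that was at 0.819 to 1.43 FPKM.

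NDRG1 (ENSG00000104419.14_4, chr8:134249414-134309480, minus strand), a stress-responsive gene induced by low oxygen in many cell lines, was the least abundant and most variable member. It was at 3.95 and 0.677 FPKM in shCtrl against 0.933 and 3.47 FPKM in shKIAA1429. Each group held a high and a low sample, 5.83-fold apart in shCtrl and 3.72-fold apart in shKIAA1429. Its fold change on the log2 scale was 0.03 (SE 0.65). The 95% interval of -1.66 to 1.72 reached past a log2 fold change of 1 in either direction, so changes of that size were not excluded. Its sign turned under other settings, to -0.0020 with values scaled to TPM and to -0.30 with the most abundant transcript in place of the sum.

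P4HA1 (ENSG00000122884.12_2, chr10:74766975-74856732, minus strand), a catalytic subunit of the enzyme that hydroxylates proline in collagen, was at 6.62 and 7.05 FPKM in shCtrl against 6.19 and 7.52 FPKM in shKIAA1429. The group means were 6.84 and 6.85 FPKM, and the 95% interval of the log2 fold change was -0.42 to 0.42 (limma adjusted p = 0.999).

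Over the 10 members, 0 were called by limma (adjusted p from 0.899 to 0.999) and 0 had an unadjusted p under 0.05. Among all 11657 genes tested 0% were called and 5.63% had an unadjusted p under 0.05. Both shKIAA1429 values lay above both shCtrl values in 2 members, ARNT and VHL, against 16.9% of all genes, and below them in 1 member, EGLN1, against 16.7% of all genes. All 10 intervals included 0. For HIF1A, EGLN1, EGLN2, VHL, BNIP3 and P4HA1 the interval stayed within a log2 fold change of 1 in either direction, and for ARNT, VEGFA, BNIP3L and NDRG1 it did not. The median absolute log2 fold change was 0.136 in the members and 0.139 in all genes tested.

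**Figure D2:**
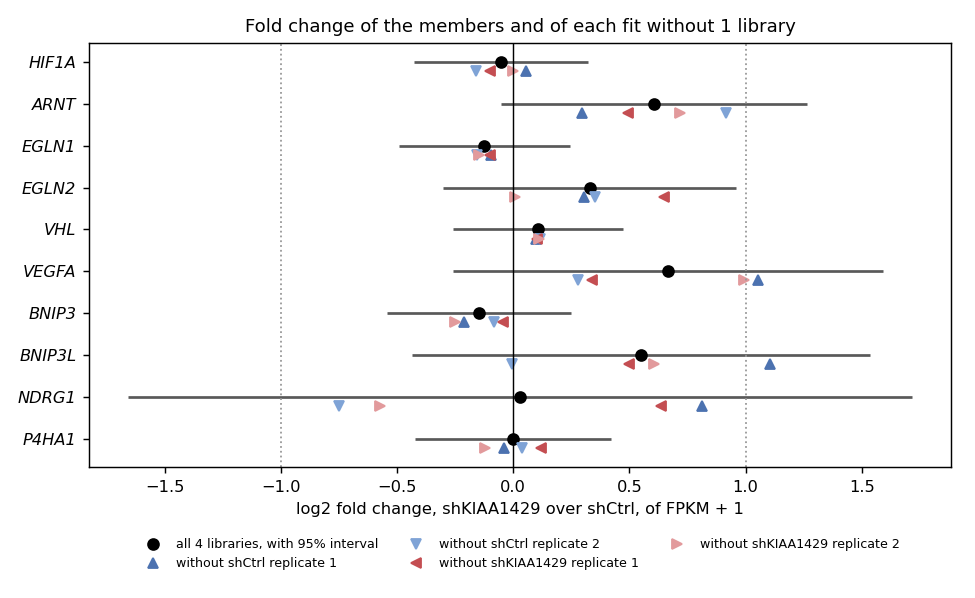
Log2 fold change (shKIAA1429 over shCtrl) of each of the 10 genes with all 4 samples (black point, 95% interval from limma as a bar) and with each sample left out in turn (triangles), and dotted lines at -1 and 1. Every interval crosses 0, and without single samples NDRG1 ran from -0.75 to 0.81 and BNIP3L from -0.0044 to 1.11.

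Ordered by mean FPKM, which is scaled to length and can be compared between genes, the members ran HIF1A, EGLN2, BNIP3L, BNIP3, ARNT, EGLN1, P4HA1, VHL, VEGFA and NDRG1. The ranges of the 4 samples did not overlap between HIF1A and EGLN2, between BNIP3 and ARNT, or between VHL and VEGFA. All other neighbours in this order overlapped. Thus the factor subunit HIF1A stood above its hydroxylases, and VEGFA and NDRG1 stood below every other member in mean level.

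The members had 32 listed transcripts, 29 of them protein-coding, and 21 passed the filter on low values. Among the 21, 0 were called by limma and 0 had an unadjusted p under 0.05, against 0% and 6.28% of the 24996 transcripts tested. The assignment of reads between overlapping transcripts of a gene is an estimate, and its error is unknown here.

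The full-length form HIF1A-202 was at 19.1 and 11.8 FPKM in shCtrl against 16.2 and 13.6 FPKM in shKIAA1429. It made up 49.3 and 35.6% of the gene in shCtrl and 45.4 and 40.9% in shKIAA1429. HIF1A-201, which skips the exon shown above, was at 11.3 and 10.6 FPKM in shCtrl against 10.3 and 10.3 FPKM in shKIAA1429. Its part of the gene was 29.1 and 31.9% in shCtrl and 28.7 and 30.9% in shKIAA1429, so the skipped form took a similar share in all 4 samples. HIF1A-203 was at 6.94 to 8.43 FPKM. The noncoding HIF1A-208 was at 0.820 FPKM in shCtrl replicate 1 and at 2.31 to 2.35 FPKM elsewhere.

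ARNT was split differently in shCtrl replicate 1 than in the other samples. There ARNT-201 was at 2.72 FPKM and ARNT-202 at 0.854 FPKM, 62.7 and 19.7% of the gene. In the remaining 3 samples ARNT-202 was at 5.17 to 6.82 FPKM, or 62.2 to 72.1% of the gene, and ARNT-201 at 1.34 to 1.58 FPKM. ARNT-202 had a log2 fold change of 1.04 (SE 0.67), and its groups overlapped, since shCtrl replicate 2 was at 5.19 FPKM.

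The high EGLN2 value of shKIAA1429 replicate 2 was carried by EGLN2-201, at 21.8 FPKM there and 13.2 to 15.0 FPKM elsewhere, and by EGLN2-202, at 5.72 FPKM there and 1.13 to 1.81 FPKM elsewhere. EGLN2-202 had the lowest unadjusted p of the members' transcripts, 0.159, with a limma adjusted p of 0.973 and a log2 fold change of 0.88 (SE 0.50). VHL-201, which encodes the full protein, was at 3.29 and 3.02 FPKM in shCtrl against 4.15 and 3.66 FPKM in shKIAA1429. Both knockdown samples were above both controls, with a log2 fold change of 0.24 (SE 0.19). VHL-202 was at 1.35 and 1.24 FPKM in shCtrl against 0.718 and 1.22 FPKM in shKIAA1429, both lower, as were HIF1A-201 and HIF1A-203. The share of all transcripts arranged in either way was not computed.

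BNIP3L-201 carried nearly the whole of its gene, at 25.5 and 11.1 FPKM in shCtrl against 25.6 and 24.2 FPKM in shKIAA1429. BNIP3-201 was at 14.2 to 16.2 FPKM in all 4 samples. BNIP3-202 was at 0.547 FPKM in shKIAA1429 replicate 1 and at 2.31 to 2.43 FPKM in the other 3 samples. NDRG1-201 made up 98.3 to 100% of NDRG1 in 3 samples. In shKIAA1429 replicate 2 it was at 1.84 FPKM, 53.1% of the gene, and the processed transcript NDRG1-217, which codes for no protein, was at 1.63 FPKM, or 46.9%. NDRG1-217 was at 0.015 FPKM or less in the other samples. Of the 3.47 FPKM of NDRG1 in that sample, the coding form thus held 1.84 FPKM.

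VEGFA-205, its form with the longest coding length, was at 1.44 and 0.682 FPKM in shCtrl against 2.68 and 0.897 FPKM in shKIAA1429. VEGFA-218, the form with the exon shown above, was at 0.787 and 0.419 FPKM in shCtrl against 0.438 and 0.693 FPKM in shKIAA1429. VEGFA-225 was at 0.066 and 0.009 FPKM in shCtrl against 0.830 and 0.648 FPKM in shKIAA1429. It made up 1.96 and 0.567% of VEGFA in shCtrl and 14.8 and 20.2% in shKIAA1429. Both knockdown samples were above both controls, but VEGFA-225 stayed under 1 FPKM in every sample and was not tested. It is named here after its values were seen. Every listed transcript reached at least 0.504 FPKM in some sample, and VEGFA-225 did so only in shKIAA1429. Being this low in shCtrl, it could be listed only through higher shKIAA1429 values, so the contrast cannot be read as a change. P4HA1-201 was at 3.82 and 3.38 FPKM in shCtrl against 3.62 and 2.86 FPKM in shKIAA1429, while P4HA1-204 was at 2.05 to 2.97 FPKM. P4HA1-205 was listed at 0 in replicate 1 of both groups and at 0.944 and 1.13 FPKM in replicate 2 of shCtrl and shKIAA1429.

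**Figure D3:**
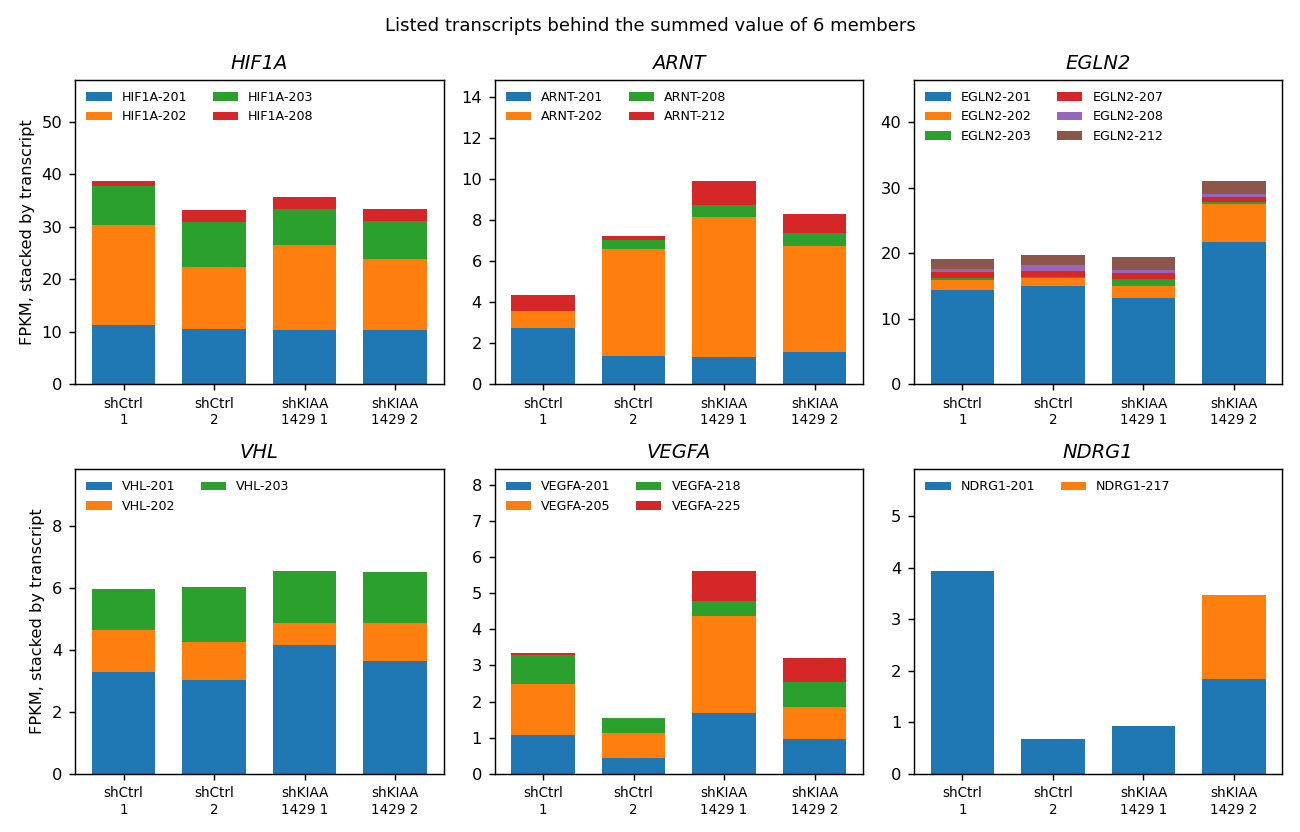
FPKM of the listed transcripts of HIF1A, ARNT, EGLN2, VHL, VEGFA and NDRG1 in each of the 4 samples, stacked by transcript so that a bar's height is the summed FPKM of the gene. ARNT-202 is low in shCtrl replicate 1 (0.854 FPKM against 5.17 to 6.82 elsewhere), and NDRG1-217 appears in shKIAA1429 replicate 2 (1.63 FPKM).

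Outside the members, the regulators of the pathway were described by a list of 17 names, 14 genes once older symbols were joined through RefSeq synonyms. Of these 10 were listed and all 10 were tested. Limma called 0 and gave 0 an unadjusted p under 0.05, against 0% and 5.63% of all genes tested. The median log2 fold change was 0.018, with 6 above 0 and 4 below. Both shKIAA1429 values lay above both shCtrl values in 2 of the 10 and below them in 2, against 16.9% and 16.7% of all genes tested. HIF1AN, the asparaginyl hydroxylase that blocks HIF from its coactivators, was at 7.04 and 7.23 FPKM in shCtrl against 9.12 and 9.32 FPKM in shKIAA1429, both higher (log2 fold change 0.33, SE 0.14). CREBBP, a coactivator recruited by HIF, was at 16.0 and 16.7 FPKM in shCtrl against 22.9 and 18.7 FPKM in shKIAA1429, also both higher. CUL2, the scaffold of the VHL ubiquitin ligase, was at 8.28 and 8.63 FPKM in shCtrl against 7.32 and 6.62 FPKM in shKIAA1429, both lower (log2 fold change -0.25). EPAS1, the other main HIF alpha subunit, was at 13.8 and 9.13 FPKM in shCtrl against 15.7 and 10.5 FPKM in shKIAA1429, with overlapping groups. EGLN3, the hydroxylase most strongly induced by HIF in many cells, and HIF3A were not among the listed genes.

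Further HIF target genes formed a list of 42 names, 41 genes, of which 36 were listed and 35 tested. Again 0 were called by limma. An unadjusted p under 0.05 was reached by 2, HK2 and PFKFB3, against 5.63% of all genes tested. Both shKIAA1429 values lay above both shCtrl values in 6 of the 35 and below them in 11, against 16.9% and 16.7% of all genes. The median log2 fold change was -0.055, with 14 above 0 and 21 below, against a median of -0.0083 and 48.1% above 0 in all genes tested. HK2, which phosphorylates glucose in the opening step of glycolysis, was at 22.2 and 24.3 FPKM in shCtrl against 15.6 and 16.5 FPKM in shKIAA1429. The groups did not overlap, and the log2 fold change of -0.51 (SE 0.14) had an unadjusted p of 0.015 and a limma adjusted p of 0.730. PFKFB3, which raises the main activator of glycolytic phosphofructokinase and is named after its values were seen, was at 15.9 and 16.2 FPKM in shCtrl against 13.0 and 10.8 FPKM in shKIAA1429. FAM162A, a hypoxia-induced mitochondrial protein, was at 5.50 and 5.73 FPKM in shCtrl against 10.4 and 6.44 FPKM in shKIAA1429, for a log2 fold change of 0.48 (SE 0.24). CA9, CA12, BHLHE41, CXCR4 and FLT1 were not among the listed genes.

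The largest fold changes of well expressed targets came with unequal control samples. DDIT4, an inhibitor of growth signalling induced by stress, was at 128.8 and 29.3 FPKM in shCtrl against 149.9 and 74.3 FPKM in shKIAA1429, for a log2 fold change of 0.77 (SE 0.75). ENO1, a glycolytic enzyme, was at 731.1 and 232.4 FPKM in shCtrl against 251.3 and 239.4 FPKM in shKIAA1429, for a log2 fold change of -0.75 (SE 0.54). A level over 2-fold higher in shCtrl replicate 1 than in shCtrl replicate 2 was found in 3 of the 10 members, VEGFA, BNIP3L and NDRG1, and in 4 of the 35 targets, DDIT4, ENO1, STC2 and VLDLR. The same held for 2.87% of all genes tested (334 genes). In the opposite direction there were 0 members, 1 target (AK4) and 2.70% of all genes. STC2 was at 16.3 and 6.04 FPKM and VLDLR at 5.25 and 2.42 FPKM in the control samples. Between the shKIAA1429 samples, replicate 1 was over 2-fold above replicate 2 in 0 members and in 2 targets, DDIT4 and MXI1. The reverse held for 1 member (NDRG1) and 1 target (TFRC), and over all genes tested the counts were 350 and 352. Both comparisons were made after the values were seen, and each sets 1 sample against 1 other with no replicate. Their part in the fold changes of these genes was not tested.

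**Figure D4:**
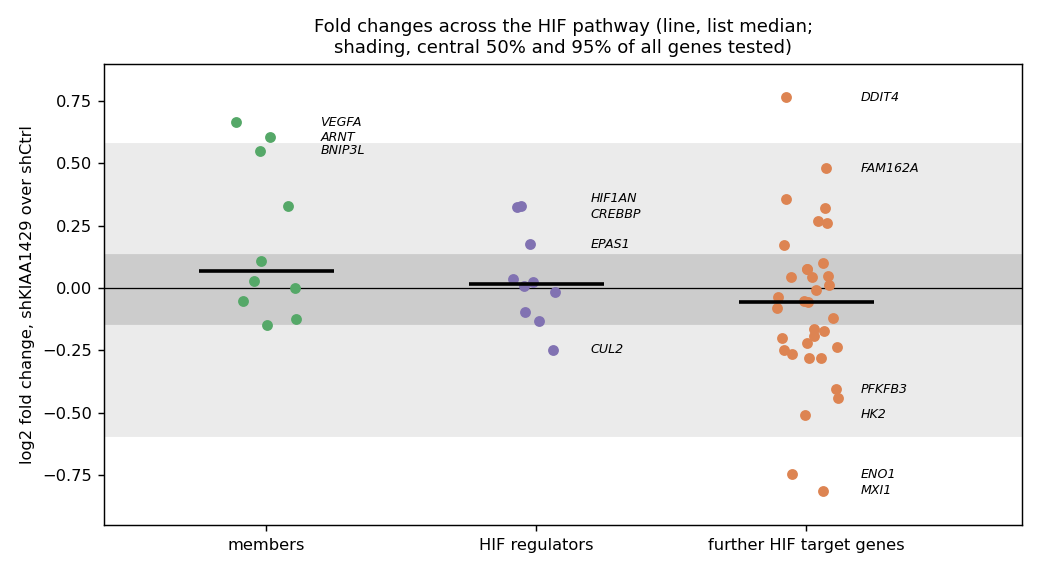
Log2 fold change (shKIAA1429 over shCtrl) of the members, the HIF regulators and the further HIF target genes that were tested, each point 1 gene, with the median of each list as a line and the central 50% and 95% of all genes tested as shading (95%: -0.59 to 0.58). The medians lie at 0.068, 0.018 and -0.055, all inside the central 50%, and the labels of MXI1 and PFKFB3 were added after their values were seen.

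Sequence features of the members were described next. HIF binds the core ACGTG or GCGTG of the hypoxia response element, and both strands of the 250 bases upstream of each gene start (RefSeq, GRCh38.p14) were searched for either core. A promoter was at hand for 6 members, so VHL, VEGFA, BNIP3L and NDRG1 were not searched. Of the 6, 4 held ACGTG, namely EGLN1, EGLN2, BNIP3 and P4HA1. This core stood in 18.5% of all 35116 promoters and in 29.6% of the 8719 tested genes with a promoter. GCGTG stood upstream of BNIP3 and HIF1A, 2 of the 6, in 32.2% of all promoters and in 54.7% of the tested genes with a promoter. A gene counted if any of its promoters held the core, so shares of genes and of promoters are unlike measures. The windows of 25 bases around ACGTG are given on the gene's strand with the core in capitals, since they lie at a sensor, at a mitochondrial target and at a collagen enzyme of the same pathway.
EGLN1: gggccgtggtgtACGTGcagagcgc
EGLN2: gggcgcggtcACGTGcccaccgggc
BNIP3: cacgcgccgcACGTGccacacgcac
P4HA1: tgatcgagctCACGTagcgagggct
They lie at chr1:231422288-231422312, chr19:40799133-40799157, chr10:131982042-131982066 and chr10:73096938-73096962 of GRCh38.p14, and the core starts 13, 48, 133 and 86 bases before the gene start. In P4HA1 the core reads on the other strand. In EGLN2 and BNIP3 it was found on both strands, being part of the palindrome CACGTG, which basic helix-loop-helix factors other than HIF also bind. A match is a description of the letters and shows no binding.

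The methyltransferase complex modifies adenosines mostly within GGAC and related motifs, so the density of GGAC was counted on the sense strand of each transcript. The 21 tested transcripts of the members held a median of 3.28 GGAC per kilobase, against 4.01 (interquartile range 2.64 to 5.85) in the tested transcripts that matched the annotation. EGLN2-201 was dense, at 7.62 per kilobase, higher than 89.6% of those transcripts. HIF1A-202 held 3.04, BNIP3L-201 2.03 and BNIP3-201 1.95 per kilobase. The share of G and C bases was 39.4, 37.4 and 41.9% in these transcripts, against 63.8% in EGLN2-201. The median share was 46.3% in the 21 tested transcripts of the members and 51.3% in the matched tested transcripts. The part of base composition in these densities was not tested. Methylation itself was not analysed here.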

How the data were processed

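The authors deposited FPKM per annotated transcript for each sample, per the file headers, and the tool that made these values is not given in the sources used here. The submitters' processing notes name Bowtie2 2.1.0 and hg19. Groups and replicate numbers were taken from sample titles. Every listed transcript reached at least 0.504 FPKM in some sample. FPKM were summed per gene identifier, genes at 1 FPKM or more in at least 2 samples were kept, and log2(FPKM + 1) was fitted by group (limma 3.58.1 under R 4.3.3, lmFit then eBayes with a trend, two-sided), with p adjusted by Benjamini-Hochberg over all genes tested. Transcripts were fitted likewise. The fit was also run on simulated independent values drawn from its own variance estimate, which cannot show whether these samples meet its assumptions. The members and lists were chosen with earlier results of these data known. Named genes were the members and their transcripts, VIRMA, and from each list the 4 genes with the largest absolute log2 fold change at a mean of at least 5 FPKM. Coding exons came from GRCh37 with GENCODE 44, promoters from RefSeq, which matched 6 members. Plots used matplotlib 3.10.9 under Python 3.11.15. Alternatives were upper quartile and TPM scaling, other filters, a pseudocount of 0.1, a replicate block, a robust variance, the most abundant transcript, fold change alone and leaving out each sample.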

Additional observations from a re-analysis of the deposited data

How the results depend on the processing

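No member was called under any alternative run. Over all genes, 125 passed by fold change alone against 0 in the test as reported, and leaving out single samples gave 0 to 1, the 1 without shCtrl replicate 1. The target median of -0.055 became -0.038 with upper quartile scaling and -0.107 with TPM scaling, and ranged from -0.110 to 0.0055 with samples left out, being above 0 without shKIAA1429 replicate 1. The member median of 0.068 ranged from 0.0024 (without shKIAA1429 replicate 2) to 0.229 (without shKIAA1429 replicate 1). NDRG1 turned to -0.0020 with TPM scaling and -0.30 with the most abundant transcript, and P4HA1 to 0.014 with upper quartile scaling. With samples left out, the log2 fold change ranged from -0.16 to 0.056 for HIF1A, -0.0044 to 1.11 for BNIP3L, -0.75 to 0.81 for NDRG1, -0.12 to 0.12 for P4HA1, 0.30 to 0.92 for ARNT and 0.28 to 1.05 for VEGFA, and the cause was not tested. Requiring 1 FPKM in all 4 samples left out NDRG1.

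The labels give both groups the same replicate numbers, without saying that a number marks a shared batch, and there are only 2 pairs. Deviations from the group means correlated at 0.3235 between same-numbered samples. With the replicate block 0 genes and 0 members were called and the member median stayed at 0.068. Depth is unknown, so the part of counting error in the low genes NDRG1 and VEGFA cannot be given.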
